A study of Rattus norvegicus with 14 samples.

Results

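Pax8, Nkx2-1, Foxe1 and Hhex are the transcription factors that together mark the thyroid lineage, and they were followed here as a set of 4 genes chosen by name out of the 16816 gene symbols of an RNA-seq count table. All 4 were listed in the table and all 4 passed the filter on low counts in every comparison. The RNA came from PCCL3 cells, a differentiated line of rat thyroid follicular cells, grown with thyrotropin, insulin, hydrocortisone and serum. PPFP cells are PCCL3 cells that stably carry the myc-tagged PAX8-PPARG fusion protein (PPFP), a product of the PAX8-PPARG rearrangement of thyroid carcinoma, and EV cells are PCCL3 cells that carry the empty vector. Each cell line received 1 μM pioglitazone, a PPARG agonist, or DMSO vehicle for 16 hours, which gave 4 groups of 3 libraries: EV cells with vehicle, EV cells with pioglitazone, PPFP cells with vehicle and PPFP cells with pioglitazone. There was 1 stable line of each kind, so the effect of PPFP and other differences between the lines cannot be told apart. Whether the lines are clones is not given in the sources used here.

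The follicular cell is the only cell type that makes these 4 factors together. Pax8 is a paired box factor and Nkx2-1 (also called Ttf1) a homeodomain factor, and both bind the promoters or enhancers of thyroglobulin and the sodium iodide symporter. Foxe1 (also called Ttf2) is a forkhead factor that acts at the thyroglobulin promoter and is needed for migration of the thyroid primordium. Hhex is a homeodomain factor needed to maintain the early thyroid bud. In the embryo and in cultured thyroid cells some of the 4 genes help sustain the expression of others, with Pax8 placed upstream of Foxe1.

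Levels are given as CPM, the counts of a gene per 1000000 counts of the library's scaled total, and the unscaled total was between 23724703 and 35240176 counts a library. EV and PPFP libraries lay apart on the first principal component, which accounted for 85.5% of the variance. Pparg, the partner in the fusion, had between 1.20 and 2.83 CPM in the 6 libraries of EV cells and between 46.9 and 61.7 CPM in the 6 libraries of PPFP cells, so every library matched the label of its cell line. The labels of treatment were not checked by this. The transgene encodes the human protein, and the table has 1 row for Pax8, so counts from the transgene and from the endogenous gene were not separated in it. The follicular cell markers Tg, Slc5a5, Tshr, Cdh16 and Cdh1 were detected in every library, whereas Krt18 had at most 3 counts and Epcam at most 1.06 CPM in a library. C cell and parathyroid markers summed to at most 0.261 CPM, and endothelial markers to at most 0.201 CPM.

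Adipocyte markers were the list of another cell type that moved most with the groups. The 5 markers summed to between 0.629 and 3.14 CPM in EV cells, between 18.8 and 19.5 CPM in PPFP cells with vehicle, and between 53.3 and 73.5 CPM in PPFP cells with pioglitazone. In PPFP cells the lipid droplet genes Plin1 and Cidec made up most of this sum, with means of 6.44 and 8.06 CPM with vehicle and 40.9 and 22.0 CPM with pioglitazone. In EV cells most of it was Adipoq, with means of 2.13 and 1.88 CPM without and with pioglitazone. Fabp4 had at most 5 counts in a library and Lep had none. Fibroblast markers, mainly Pdgfra, summed to between 22.3 and 24.3 CPM for EV libraries. The range was 20.4 to 32.4 CPM in PPFP cells with vehicle and 26.0 to 34.5 CPM with pioglitazone. With pioglitazone in both lines Pdgfra was higher in PPFP than in EV cells (log2 fold change 0.46, adjusted p = 0.014, edgeR). Leukocyte markers summed to at most 1.05 CPM in a library of EV cells and at least 1.10 CPM in one of PPFP cells, and Cd68, the only one tested, was higher in PPFP cells (log2 fold change 0.86 with vehicle and 1.18 with pioglitazone, adjusted p of 0.048 and 0.016, edgeR). The part of these cells or transcripts in the results was not tested, and in bulk RNA fewer cells of a type and less RNA per cell cannot be told apart.

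The first comparison asked how the factors stood in PPFP cells relative to EV cells without pioglitazone. Foxe1 was 6.59-fold lower, Hhex 1.98-fold lower and Nkx2-1 1.49-fold lower in PPFP cells, while Pax8 did not pass the test. The mean of PPFP cells was thus 15.2% of the mean of EV cells for Foxe1, 50.4% for Hhex and 94.5% for Pax8. In EV cells with vehicle, Foxe1 had 882, 897 and 839 CPM in replicates 1 to 3. In PPFP cells with vehicle it had 151, 124 and 123 CPM. The highest PPFP library therefore stood far below the lowest EV library. This was a log2 fold change of -2.72 (SE 0.11, n = 3 a group; adjusted p = 4e-06 in edgeR's quasi-likelihood test, used for every adjusted p unless another test is named), the 259th lowest of 10264 genes tested.

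Hhex had 505, 475 and 561 CPM in EV cells with vehicle. It had 230, 268 and 279 CPM in PPFP cells with vehicle, so the groups were separated by a wide gap. Its log2 fold change of -0.99 (SE 0.11; adjusted p = 0.00028, edgeR) lay just inside the 2-fold limit. Without EV vehicle replicate 1 or 2, or PPFP vehicle replicate 2 or 3, and with scaling by library size alone, Hhex passed the 2-fold limit as well, so that 2 factors rather than 1 exceeded it.

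Nkx2-1 had 350, 352 and 297 CPM in EV cells with vehicle. PPFP cells with vehicle had 206, 239 and 224 CPM. Every PPFP library was below every EV library, with a smaller gap than for Foxe1 or Hhex. The log2 fold change was -0.58 (SE 0.10; adjusted p = 0.0026, edgeR).

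Pax8 had 693, 798 and 712 CPM in EV cells with vehicle. PPFP cells with vehicle had 680, 712 and 689 CPM, and the groups overlapped. The log2 fold change was -0.08 with a 95% interval from -0.28 to 0.12 (adjusted p = 0.47, edgeR). Any counts from the transgene in PPFP cells were not separated from those of endogenous Pax8. The change of the endogenous gene alone is therefore not known, here or in the other comparisons of Pax8 that involve PPFP cells.

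**Figure D1:**
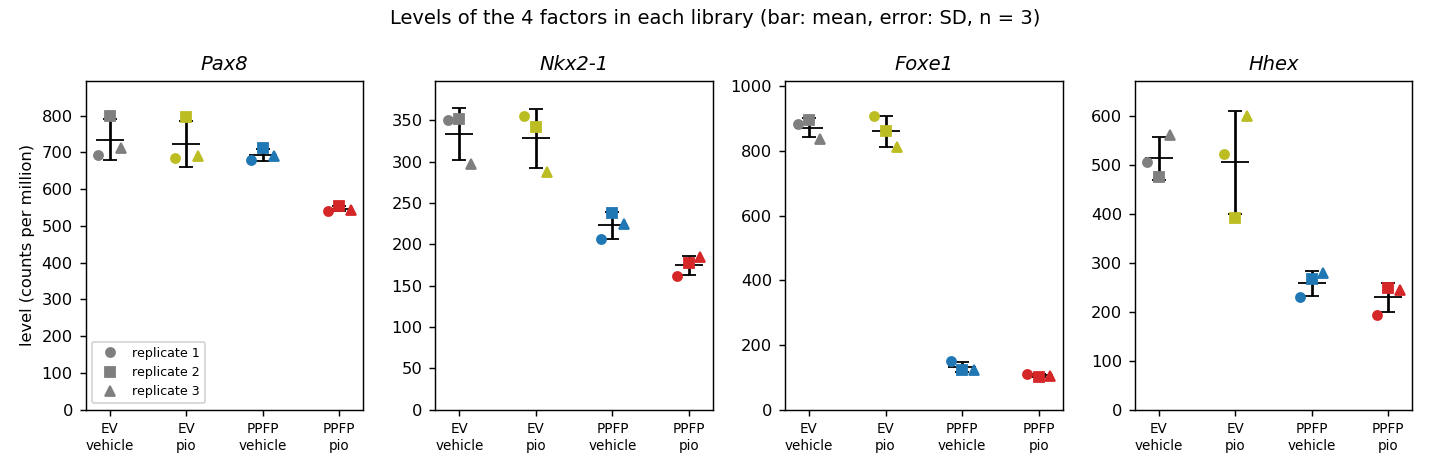
Level of each factor in CPM (vertical axis, from 0) in the 12 libraries by group (horizontal axis; pio, pioglitazone), with circles, squares and triangles for replicates 1, 2 and 3 and bars for the mean and SD of 3 libraries. Foxe1 lies at 123 to 151 in PPFP cells with vehicle against 839 to 897 in EV cells with vehicle, whereas for Pax8 these groups overlap.

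Read against all genes, 3 of 4 factors fell in this comparison, where 23.1% of genes tested were lower and 22% higher at an adjusted p under 0.05. Foxe1 was the only factor that was also more than 2-fold lower, as were 7.31% of genes. The groups did not overlap for 3 of the 4 factors, and did not overlap for 56.5% of all genes tested, so the lack of overlap alone does not set the factors apart. The median log2 fold change of the 4 factors was -0.78, and that of all genes 0.002.

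The factors therefore stood in other proportions to one another in PPFP cells. Within a library, the ratio of Pax8 to Foxe1 counts was 6.27-fold higher in PPFP than in EV cells with vehicle, and that of Nkx2-1 to Foxe1 4.44-fold higher. The ratio of Foxe1 to Hhex was 3.33-fold lower, and that of Pax8 to Nkx2-1 1.41-fold higher. This ratio depends on neither library size nor scaling. The ratios with Pax8 may include transgene counts in PPFP cells. With vehicle the PPFP and EV libraries did not overlap in any of the 6 ratios, and with pioglitazone they overlapped in that of Nkx2-1 to Hhex (1.16-fold). How often other pairs of genes overlap was not computed.

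With pioglitazone in both cell lines, all 4 factors were lower in PPFP than in EV cells. Foxe1 was 8.03-fold lower, Hhex 2.18-fold, Nkx2-1 1.86-fold and Pax8 1.31-fold. Foxe1 had 908, 863 and 812 CPM in EV cells with pioglitazone. In PPFP cells with pioglitazone it had 111, 102 and 105 CPM, for a log2 fold change of -3.0 (SE 0.08; adjusted p = 1.3e-06, edgeR). These 3 PPFP libraries were closer to one another than those with vehicle, with an SD of 4.09 against 16.0 CPM (n = 3).

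Hhex was the most variable factor in EV cells with pioglitazone, at 523, 392 and 599 CPM. PPFP cells with pioglitazone had 194, 249 and 244 CPM. The groups were separate, with a log2 fold change of -1.12 (SE 0.18; adjusted p = 0.0018, edgeR). Without EV pioglitazone replicate 3 it was -0.999 and no longer past 2-fold, which left Foxe1 as the only factor past that limit.

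Nkx2-1 had 355, 342 and 288 CPM in EV cells with pioglitazone. It had 162, 177 and 185 CPM in PPFP cells with pioglitazone, again with no overlap (log2 fold change -0.89, SE 0.10; adjusted p = 0.00036, edgeR). Pax8 had 684, 795 and 691 CPM in EV cells with pioglitazone. Its 541, 554 and 544 CPM in PPFP cells with pioglitazone were all lower, at a log2 fold change of -0.39 (SE 0.09; adjusted p = 0.007, edgeR). The spread of Pax8 was thus narrow in PPFP cells, with an SD of 6.81 CPM (n = 3).

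All 4 factors fell in this comparison, where 26.4% of genes were lower and 26.3% higher. Both Foxe1 and Hhex were more than 2-fold lower, as were 10.4% of genes. The groups did not overlap for any of the 4 factors and did not overlap for 62.9% of all genes tested. The median log2 fold change was -1.01 for the factors and 0.01 for all genes. The comparisons of cell lines with and without pioglitazone used different libraries, but same-numbered libraries of a cell line varied together, so these comparisons are not independent.

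**Figure D2:**
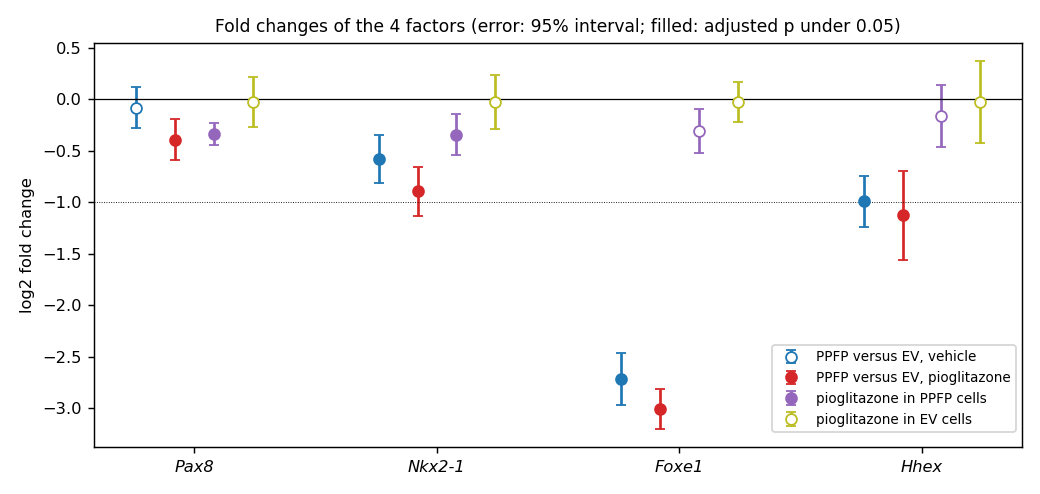
Log2 fold change (vertical axis) of each factor (horizontal axis) in the 4 comparisons named by colour, with 95% intervals as error bars, filled points for an adjusted p under 0.05 and a dotted line at 2-fold lower. Foxe1 stands at -2.72 and -3.0 between the cell lines, and all 4 factors lie between -0.02 and -0.03 for pioglitazone in EV cells.

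The next question was whether pioglitazone altered the factors within PPFP cells. Pax8 and Nkx2-1 fell by a similar extent, to 78.7% and 78.3% of their mean with vehicle, and Foxe1 and Hhex, at 80.2% and 88.6%, did not pass the test that treats the libraries as unpaired. Pax8 showed the steadiest response. Its level with pioglitazone was 79.6%, 77.8% and 78.9% of that in the vehicle library of the same number (log2 fold change -0.33, SE 0.04; adjusted p = 0.0048, edgeR). Nkx2-1 had 78.4%, 74.4% and 82.3% by the same measure, with a log2 fold change of -0.34 (SE 0.08; adjusted p = 0.039, edgeR). It kept its call without PPFP vehicle replicate 1 and lost it when any of the other 5 libraries was left out, with adjusted p values from 0.063 to 0.14 in edgeR.

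Foxe1 had 73.3%, 82.9% and 85.9% of the vehicle library of the same number. The groups did not overlap, and the log2 fold change was -0.31 (SE 0.09; adjusted p = 0.069, edgeR). It passed without PPFP vehicle replicate 1, at -0.22 (adjusted p = 0.048, edgeR). Hhex had 84.4%, 93.1% and 87.7%, and its groups overlapped (log2 fold change -0.16, SE 0.13; adjusted p = 0.46, edgeR). All 12 of these ratios, for 4 factors in 3 pairs, were below 100%.

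Libraries with the same number varied together within a cell line, so the comparison was also fitted with the replicate number as a block. All 4 factors then passed, at a log2 fold change of -0.30 for Foxe1 (adjusted p = 4e-06, edgeR with replicate block) and -0.17 for Hhex (adjusted p = 0.00051). The block did not alter the size of the changes of Pax8 and Nkx2-1, whose adjusted p values with it were 1.8e-08 and 3.6e-08 in edgeR. Without the block 7.13% of genes were lower and 7.63% higher, and with it 23.9% were lower. More than 2-fold lower were 1.31% of genes and none of the factors. The groups did not overlap for 3 of 4 factors and for 34.4% of all genes.

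The ratios of one factor to another within a library moved by at most 1.13-fold with pioglitazone in PPFP cells, and for all 6 pairs of factors the groups overlapped. Against the vehicle library of the same number, the percentage that remained was highest for Hhex in 3 of 3 pairs. The difference between factors was not tested. Between the cell lines with vehicle the ratio of Pax8 to Foxe1 had moved by 6.27-fold.

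In EV cells the factors showed no detectable response to pioglitazone. The log2 fold changes lay between -0.03 and -0.02, with adjusted p = 1 for each in edgeR. The 95% interval was -0.26 to 0.22 for Pax8, -0.28 to 0.24 for Nkx2-1, -0.22 to 0.17 for Foxe1 and -0.43 to 0.37 for Hhex. Hhex had the widest interval, with 103%, 82.7% and 107% of the vehicle library of the same number. At an adjusted p under 0.05, 0% of the 10146 genes tested passed in edgeR, and 0 in DESeq2, while 16 genes had an unadjusted p under 0.05. With the replicate block 1 gene passed in edgeR, and none of the factors did.

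**Figure D3:**
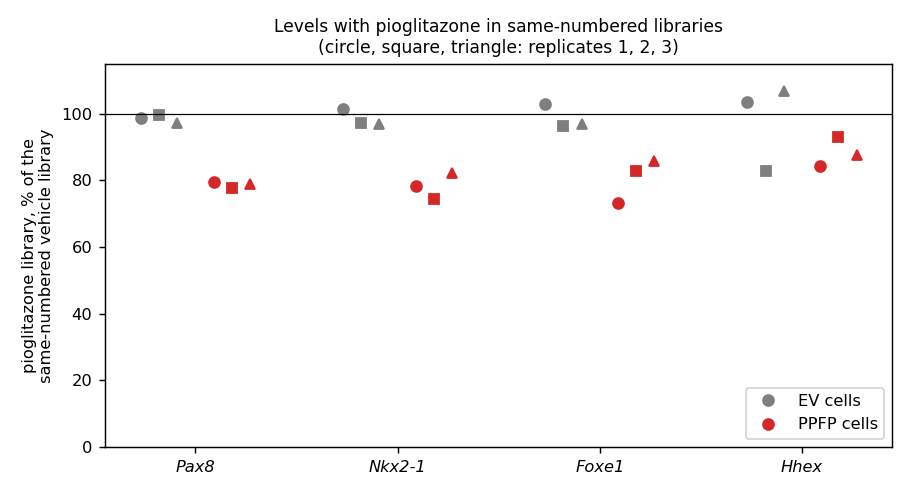
Level of each factor with pioglitazone as a percentage of the vehicle library of the same number and cell line (vertical axis, from 0), for EV cells (grey) and PPFP cells (red), with circles, squares and triangles for replicates 1, 2 and 3. For Pax8 the PPFP libraries lie at 77.8% to 79.6% and the EV libraries at 97.1% to 99.6%.

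The difference between the pioglitazone responses of the cell lines was tested directly. In the fit of all 12 libraries without a block no factor passed, with differences in log2 fold change of -0.32 for Pax8 (adjusted p = 0.19, edgeR), -0.33 for Nkx2-1 (adjusted p = 0.34), -0.30 for Foxe1 (adjusted p = 0.3) and -0.15 for Hhex (adjusted p = 0.89). The unadjusted p was under 0.05 for 3 of them, at 0.0139, 0.0408 and 0.0331 in the same edgeR fit, as it was for 13.3% of all genes. At an adjusted p under 0.05, 2.64% of all genes passed. With a replicate block within each cell line, 3 factors passed: Pax8 (difference -0.32, adjusted p = 9.8e-05 in edgeR), Nkx2-1 (-0.33, adjusted p = 0.00015) and Foxe1 (-0.29, adjusted p = 0.002). Hhex did not (-0.14, adjusted p = 0.21). In that fit 17.1% of genes passed in the lower direction.

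Among thyroid function genes 16 of 18 were tested, and their dependence on the factors was not tested. In PPFP cells with vehicle 9 (56.2%) were lower and 5 (31.2%) higher than in EV cells, against 23.1% and 22% of all genes, at a median log2 fold change of -0.56. Slc26a7 and Slc26a4, which encode anion transporters of the follicular cell, passed the filter on low counts only through the line where they were high, so their directions are no result of the test. With at least 10 counts required in every library 8 of 14 were lower and 4 higher. The mean of Slc26a7 was 14.7 ± 5.41 CPM (SD, n = 3) for EV and 0.17 ± 0.052 CPM for PPFP cells. Slc5a5, the sodium iodide symporter, fell by 1.73 on the log2 scale (SE 0.10; adjusted p = 1.4e-05, edgeR). The cadherin gene Cdh16 fell by 1.82 (adjusted p = 9.5e-05, edgeR). Genes of the same list moved the other way. Duox2 and Duoxa2, the hydrogen peroxide generating oxidase and its maturation factor, rose by 2.21 and 2.13 (adjusted p of 9.8e-06 and 2.1e-05, edgeR), and Tshr, the thyrotropin receptor, by 0.66 (adjusted p = 0.0014).

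Tg, the thyroglobulin gene bound by Pax8, Nkx2-1 and Foxe1, did not pass in the main test between the cell lines. With vehicle its mean was 8789 ± 2016 CPM for EV and 11820 ± 294 CPM for PPFP cells (SD, n = 3; log2 fold change 0.43, adjusted p = 0.074, edgeR). With pioglitazone the means were 8741 ± 1766 CPM for EV and 8462 ± 148 CPM for PPFP cells (log2 fold change -0.03, adjusted p = 0.89, edgeR). Within PPFP cells this was a fall of 0.47 from vehicle on the log2 scale (adjusted p = 0.00092, edgeR). The difference between the lines with vehicle passed without EV vehicle replicate 3 (0.25, adjusted p = 0.039, edgeR), in DESeq2 (0.43, adjusted p = 0.033) and in edgeR's exact test (0.43, adjusted p = 0.044). The fall with pioglitazone did not pass with all 12 libraries in one edgeR fit (-0.48, adjusted p = 0.1).

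With pioglitazone in PPFP cells, 8 of 15 thyroid function genes fell and 3 rose, against 7.13% and 7.63% of all genes, at a median log2 fold change of -0.60 against 0.01 for all genes. With the replicate block 11 fell and 3 rose, against 23.9% and 27.7%. Slc5a5 fell by 0.92 (adjusted p = 0.0056, edgeR), more than any of the 4 factors. Iyd, the iodotyrosine deiodinase, fell by 1.53 from a mean of 1.30 CPM (adjusted p = 0.025, edgeR), a call lost without PPFP vehicle replicate 2 or 3 or PPFP pioglitazone replicate 2 or 3. Iyd had 29 to 36 counts with vehicle and only 7 to 18 with pioglitazone. It was therefore not tested where at least 10 counts were required in every library, and in that setting 7 of 14 genes fell and 3 rose. Duox2 and Duoxa2 rose further, by 1.02 and 1.10 (adjusted p of 0.00037 and 0.0014, edgeR). Tshr had a log2 fold change of -0.14 (adjusted p = 0.42), and passed with the replicate block (adjusted p = 0.0013).

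Of 16 other regulators of thyroid development 12 were in the table and 6 were tested, of which 4 (66.7%) were lower and none higher in PPFP cells with vehicle, against 23.1% and 22% of all genes, at a median of -0.76. The 4 became 3 without EV vehicle replicate 1 or 2 or PPFP vehicle replicate 3. With at least 10 counts required in every library they were 3 of 5, since Bmp4 passed the filter only through the EV libraries and its direction is no result of the test. Fgfr2, the receptor for fibroblast growth factors that act on the thyroid bud, fell by 1.16 (adjusted p = 0.00013, edgeR). Notch1 fell by 0.94 and its target gene Hes1 by 0.58 (adjusted p of 0.00043 and 0.023, edgeR). The call for Hes1 was lost without EV vehicle replicate 1 or 2 or PPFP vehicle replicate 3. Bmp4, a secreted signal of the bone morphogenetic protein family, had 139 to 263 counts in each library of EV cells with vehicle and 1 count in each library of PPFP cells with vehicle, which made it at least 58.6-fold lower against a floor of 3 counts a library. With pioglitazone Fgfr2 and Notch1 fell again in PPFP cells, by 0.60 and 0.94 (adjusted p of 0.00099 and 0.0088, edgeR), and Hes1 had a log2 fold change of 0.07 (adjusted p = 0.86). Glis3, a zinc finger factor of the thyroid, was not among the gene symbols analysed here.

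Relatives of the 4 factors by gene family were mostly at low levels. Of 8 listed genes of the same families 6 were in the table and 3 were tested. In PPFP cells with vehicle 2 of them (66.7%) were lower, none was higher and 1 did not pass, against 23.1% lower and 22% higher among all genes. The more distant paired box gene Pax9, not on this list, was higher in PPFP cells with vehicle and is described among the chromosomal neighbours. Foxa2, a forkhead gene like Foxe1, fell by 2.01 from a mean of 9.60 CPM in EV cells (adjusted p = 8.8e-05, edgeR). Pax2, of the same subfamily as Pax8, fell by 1.01 from 6.88 CPM (adjusted p = 0.0031, edgeR). Neither passed with pioglitazone in PPFP cells, where the adjusted p was 0.25 for Foxa2 and 0.84 for Pax2.

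Binding partners and coactivators were tested as a list of 14 genes. In PPFP cells with vehicle 2 of them (14.3%) were lower and 2 higher, against 23.1% and 22% of all genes, at a median of 0.09. The lower genes numbered 1 without EV vehicle replicate 1 or PPFP vehicle replicate 2 or 3, and 3 without EV vehicle replicate 3. The higher genes numbered 3 without EV vehicle replicate 3 or PPFP vehicle replicate 1. Kcnip3, a calcium-binding repressor also called DREAM that acts on thyroid promoters, fell by 1.83 (adjusted p = 3.5e-05, edgeR). Wwtr1, which encodes TAZ, a coactivator of Pax8 and Nkx2-1, rose by 0.76 (adjusted p = 0.00077, edgeR). With pioglitazone in PPFP cells 1 of 14 fell and 1 rose, against 7.13% and 7.63% of all genes, and with the replicate block 4 fell and 4 rose, against 23.9% and 27.7%, so neither share stood far from the background. The genes that fell numbered 2 without PPFP pioglitazone replicate 1, with DESeq2 and with library size alone. Kcnip3 fell by 0.75 (adjusted p = 0.0065, edgeR). Wwtr1 rose by 0.26 (adjusted p = 0.033), a call that was lost when any single library of PPFP cells was left out.

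**Figure D4:**
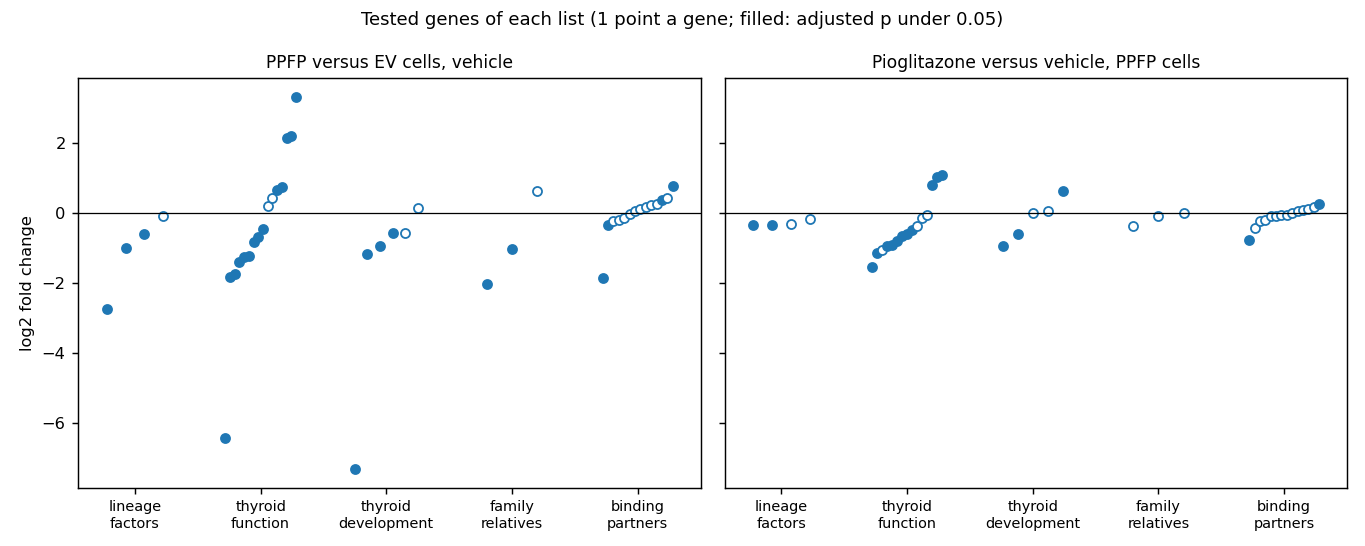
Log2 fold change (vertical axis) of each tested gene of 5 lists (horizontal axis), for PPFP against EV cells with vehicle (left) and for pioglitazone against vehicle in PPFP cells (right), with filled points for an adjusted p under 0.05. At left 9 of 16 thyroid function genes are filled below 0 and 5 above. With at least 10 counts in every library these are 8 and 4 of 14. At right 8 of 15 are filled below 0 and 3 above, or 7 and 3 of 14 with that filter.

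The gene lists also held lung genes controlled by Nkx2-1, of which 1 was tested in PPFP cells with vehicle. This was Napsa, the aspartic peptidase napsin A, a gene chosen with its values in view. With vehicle its mean was 1130 ± 41.1 CPM for EV and 773 ± 18.6 CPM for PPFP cells (SD, n = 3; log2 fold change -0.55, adjusted p = 0.00093, edgeR). With pioglitazone in PPFP cells it fell by 0.52 (adjusted p = 0.0017, edgeR). With pioglitazone in both lines Napsa was lower in PPFP cells, at a log2 fold change of -1.05 (adjusted p = 1e-04, edgeR), and 10.4% of all genes were more than 2-fold lower there. Sftpc, a surfactant protein gene also chosen with its values in view, had 13 to 49 counts in EV libraries with pioglitazone and 0 or 1 count in PPFP libraries with pioglitazone, at least 10.1-fold lower against a floor of 3 counts a library. It passed the filter on low counts only through the EV libraries, so its direction is no result of the test.

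Among markers of the follicular cell and of adipocytes, Krt8, Cidec and Plin1 passed the filter on low counts only through the line where they were high, so their values are given as a description. The keratin gene Krt8 had 84 to 124 counts in the EV libraries with vehicle and 0 to 4 counts in the PPFP libraries with vehicle. Cidec had 1 or 2 counts in the EV libraries with vehicle and 192 to 220 in the PPFP libraries, at least 80.1-fold higher. Plin1 had 0 to 4 and 138 to 187 counts in the same groups. Adipoq rose by 1.09 in PPFP cells with vehicle (adjusted p = 0.027, edgeR), a call lost without EV vehicle replicate 2 or PPFP vehicle replicate 2 or 3. With pioglitazone in PPFP cells Adipoq moved against the sum of its list and fell by 0.91 (adjusted p = 0.024, edgeR), a call lost without PPFP vehicle replicate 2 or 3 or PPFP pioglitazone replicate 3, and both calls were lost with all 12 libraries in one fit.

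Genes beside the factors on the chromosomes were examined to see how far each difference extended. The 3 genes on either side of each factor gave 24 neighbours by their order in the RefSeq annotation, of which 16 were tested. In PPFP cells with vehicle 4 of them (25%) were lower and 2 (12.5%) higher, against 23.1% and 22% of all genes, so the share that was lower was close to the background. None was more than 2-fold different. All 5 tested neighbours of Foxe1 lay within 0.45 of 0 on the log2 scale. Tstd2 was the only one that passed, and it was higher (log2 fold change 0.45, adjusted p = 0.0031, edgeR). Beside Nkx2-1 the change was of mixed direction. Its neighbour Mbip fell by 0.53 (adjusted p = 0.0011, edgeR). Slc25a21 fell by 0.78 and Pax9 rose by 0.57 (adjusted p of 0.0023 and 0.011, edgeR). Exoc6 beside Hhex fell by 0.33 and Ehmt1 beside Pax8 by 0.28 (adjusted p of 0.032 and 0.023, edgeR). With pioglitazone in PPFP cells 1 of the 16 neighbours fell and 2 rose, against 7.13% and 7.63% of all genes. Mbip fell by 0.37 (adjusted p = 0.0063, edgeR). Slc25a21 rose by 0.64 and March5, beside Hhex, by 0.64 (adjusted p of 0.0015 and 0.0021, edgeR). These 7 neighbours were chosen with their values in view.

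**Figure D5:**
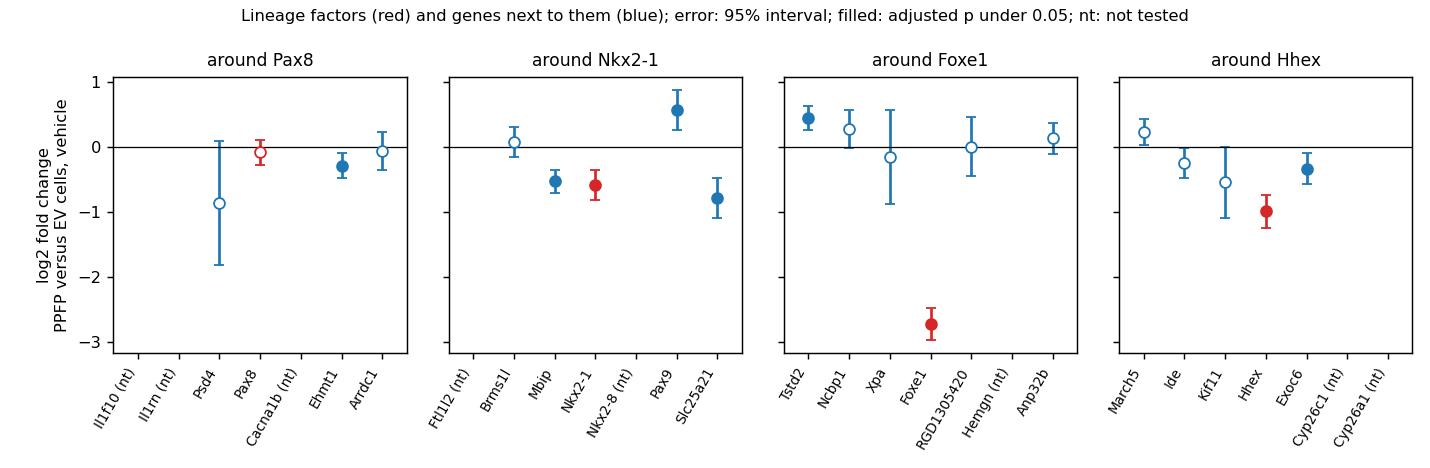
Log2 fold change in PPFP against EV cells with vehicle (vertical axis, 95% intervals) of each factor (red) and of the 3 genes on either side of it in RefSeq order (blue), with filled points for an adjusted p under 0.05 and nt for genes not tested. Foxe1 stands at -2.72 among neighbours that lie within 0.45 of 0.

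The promoter of Hhex is shown because the RefSeq start of this factor is also the outermost start of its gene, so that the window holds no transcribed part of it. The 250 bases before that start lie at chr1:244602695-244602944 of GRCr8, plus strand. Capitals mark a CCAAT box on the reverse strand and an AAATAA element:

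Hhex: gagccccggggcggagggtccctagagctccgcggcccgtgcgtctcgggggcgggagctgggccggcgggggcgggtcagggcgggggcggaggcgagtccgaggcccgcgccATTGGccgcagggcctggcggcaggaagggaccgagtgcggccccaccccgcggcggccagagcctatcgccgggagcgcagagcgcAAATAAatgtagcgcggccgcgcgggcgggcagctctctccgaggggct

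This window had a GC content of 78.4%, above that of 98.3% of the 27457 RefSeq promoter windows of the same length, and held 35 CpG dinucleotides. CCAAT was found on either strand in 34.2% of all windows, once each in those of Hhex, Pax8 and Nkx2-1. AAATAA was found in 18.8% and, of the 3, in that of Hhex. Letters of a Pax site (GTCACGC, in 1.83% of windows, or GTCATGC, in 1.53%), a Nkx2-1 core (CAAGTG, 11.7%), a forkhead core (GTAAACA, 3.29%) and the repeat unit of a PPARG site (AGGTCA, 13.7%) were searched on both strands, and none occurred in these 3 windows. No motif searched overlapped another within the Hhex window. Promoter windows of Pax8 and Nkx2-1 lie within the span of their genes and are not printed.

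Genes that followed each factor most closely were sought among 9637 genes with a mean of at least 1 CPM. Likeness was the root mean square difference of log2 CPM, centred on each gene's mean, over the 12 libraries, where a smaller value means a more similar pattern. For Foxe1 the nearest were Col8a1 (0.173), a chain of a short-chain collagen, LOC690137 (0.175) and Tnfsf12 (0.197), a cytokine of the tumour necrosis factor family, against a median of 1.46 for all genes. Col8a1 went from a mean of 48.3 CPM in EV cells with vehicle to 6.53 CPM in PPFP cells with vehicle. For Hhex they were Wasl (0.098), an activator of actin assembly, Plxnd1 (0.113), a semaphorin receptor, and Pkig (0.117), an inhibitor of protein kinase A, against a median of 0.603. The mean of Wasl with vehicle was 167 CPM for EV and 84.5 CPM for PPFP cells. For Nkx2-1 they were Slc36a1 (0.0553), an amino acid transporter of lysosomes, Cttnbp2nl (0.0596) and Man2b1 (0.0605), the lysosomal alpha-mannosidase, against 0.461. For Pax8 they were Ino80b (0.0645), a subunit of a chromatin remodelling complex, RGD1305110 (0.0713) and Marc2 (0.0723), a mitochondrial reductase, against 0.306. With a smaller prior count of 0.5 the nearest 3 genes of each factor were the same. No gene was as close to Foxe1 as the nearest were to the other factors, and since the libraries fall into 2 clusters by cell line these values describe the pattern only.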

How the data were processed

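RNA libraries were sequenced as read pairs. The authors aligned the reads to the rat genome rn4 with TopHat2 2.0.11 and counted them per gene with HTSeq 0.6.1p1 in its intersection-strict mode, per the submitters' processing notes and the methods. The deposited table holds these unnormalized counts by gene symbol, with no gene lengths, so levels were not compared between genes. The library preparation did not mark strand, so antisense transcripts cannot be separated. The deposited ChIP-seq peak lists were not used here.

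The count models used edgeR 4.0.16 (with limma 3.58.1, under R 4.3.3), and DESeq2 1.42.0 served as an alternative. Promoters and figures were handled under Python 3.11.15 and matplotlib 3.10.9. After filterByExpr and TMM scaling, the quasi-likelihood test of edgeR was run and its p values were adjusted by Benjamini-Hochberg over all genes tested, on the 6 libraries of each comparison or, for the difference between responses, on 12. A gene passed at an adjusted p under 0.05. An SE is the log2 fold change divided by the square root of F. The 3 replicates came from independent experiments per the methods.

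Same-numbered libraries deviated together from their group means within a cell line (correlations over genes of 0.567 to 0.839 in PPFP cells and 0.643 to 0.871 in EV cells). In EV cells, but not in PPFP cells, every library correlated best with its own number. All correlations were over 0.1, so blocked values are printed for pioglitazone within a cell line and for the difference between responses.

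The members and gene lists were chosen with earlier results of these data known. Genes were named by rule: the 4 factors, Tg, Slc5a5, Tshr, Glis3, Fgfr2, Notch1, Hes1 and Wwtr1, the 3 genes most like each factor, and up to 5 genes a list and comparison with a mean of at least 1 CPM, an adjusted p under 0.05 and more than 2-fold change in PPFP versus EV cells with vehicle or with pioglitazone in PPFP cells. One gene that the rule names is not reported here. The alternatives were DESeq2, edgeR's exact test, RLE size factors, library size alone, other filters, all 12 libraries in one fit, the replicate block and each library left out. Promoter sequences are from RefSeq (GRCr8), matched by symbol for 3 of 4 factors. Neighbouring genes were taken from the order of genes in the same assembly.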

Additional observations from a re-analysis of the deposited data

Results flagged for a closer look

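The pioglitazone response differed between PPFP and EV cells for 3 factors when same-numbered libraries were blocked within each cell line, in a fit where 34.3% of all genes passed. The difference in log2 fold change was -0.32 for Pax8, -0.33 for Nkx2-1 and -0.29 for Foxe1. All 4 factors, Hhex included, were below their vehicle library in 3 of 3 PPFP pairs, and Pax8 also in 3 of 3 EV pairs, at 97.1% to 99.6%. Without the block the same differences did not pass, with adjusted p values of 0.19, 0.34 and 0.3 in edgeR.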

How the results depend on the processing

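Between the cell lines, every call at an adjusted p under 0.05 for Foxe1, Hhex and Nkx2-1, and with pioglitazone that for Pax8, held under all 14 alternatives in each comparison. With vehicle 1 to 2 factors were more than 2-fold lower when a library was left out, and 2 with library size alone. With pioglitazone these numbers were 1 to 2 and 3, since Nkx2-1 reached -1.03 with library size alone. With pioglitazone in PPFP cells 1 to 3 factors passed when a library was left out and 4 with the replicate block. Foxe1 ranged from -0.37 to -0.22 without one library, and Nkx2-1 from -0.41 to -0.30. Foxe1 passed with DESeq2 (-0.32), library size alone (-0.35), the exact test (-0.31), all 12 libraries (-0.32) and the replicate block (-0.30), and Hhex only with the block (-0.17). For the difference between the lines the block let 3 factors pass, Pax8 at -0.32, Nkx2-1 at -0.33 and Foxe1 at -0.29. In EV cells the near-zero changes crossed 0 when libraries were left out, from -0.093 to 0.033 for Pax8, -0.086 to 0.054 for Nkx2-1, -0.060 to 0.0075 for Foxe1 and -0.18 to 0.13 for Hhex, as did Hes1 (-0.089 to 0.22) and Pax2 (-0.24 to 0.059) with pioglitazone in PPFP cells. The count of genes past 2-fold with vehicle fell from 1496 to 983 with at least 10 counts in every library, since fewer genes were tested. That for pioglitazone in PPFP cells was 244 and ranged from 160 to 296 without one library, lowest without PPFP vehicle replicate 3. That for the difference between the lines ranged from 52 to 105 without one library and was 269 with the block. Other causes were not tested. Library size alone moved the median of all genes from 0.01 to -0.12 between the lines with pioglitazone. Between the cell lines the same-numbered libraries did not deviate together (correlations of -0.396 to 0.407 with vehicle and -0.468 to 0.32 with pioglitazone), and the replicate block changed no call of a factor there (Foxe1 -2.73 with vehicle). The planned count of ChIP-seq peaks near the factors and its alternatives were not run, because no rn4 annotation was used. With vehicle, 4 of 6 thyroid development genes were lower than in EV cells, and between 3 and 5 under the alternatives, with 3 when at least 10 counts in every library were required and 5 with the replicate block.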
